A study of Rattus norvegicus with 40 samples.

Results

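The genes Ryr2, Jph2, Casq2, Atp2a2, Pln and Slc8a1 take part in the release, storage and removal of calcium in each heartbeat. Their mRNA was examined in the right ventricle of normal rats and of rats in models of pulmonary hypertension. Every probe of the array that its annotation assigned to one of these 6 genes was taken, whatever its values. This gave 14 probes, printed as 32 spots, of 40941 probes with any value, for 6 of 14861 named genes. Ryr2 had 2 probes, Jph2 had 1, Casq2 had 1, Atp2a2 had 3, Pln had 3 and Slc8a1 had 4. A probe was tested where at least 4 of the 6 animals of each group had a value, and 11 of the 14 probes were tested among 21567 in all.

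The animals were 24 male Sprague-Dawley rats in 4 groups of 6, and their age is not given in the sources used here. SuHx+carvedilol rats received 20 mg/kg of SU5416, which inhibits the VEGF receptors, then 10% oxygen for 4 weeks, and then 4 weeks in room air with daily carvedilol at 15 mg/kg, a drug that blocks beta and alpha1 adrenoceptors. SuHx rats received the same injection and the same 4 weeks of hypoxia, followed by 2 weeks in room air, without carvedilol. Hypoxia rats breathed 10% oxygen for 4 weeks without SU5416, and normal rats received none of these. Carvedilol was given in a solvent and no vehicle group was analysed here, and the carvedilol and SuHx groups differed in their weeks in room air. Hypoxia alone is used in this field as a model of a ventricle that adapts to pressure, and SuHx as a model of one that fails.

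In a heart muscle cell, a little calcium enters through L-type channels and opens the ryanodine receptor Ryr2, through which the sarcoplasmic reticulum releases far more. Junctophilin 2, made from Jph2, holds the surface membrane close to the reticulum so that both channels face each other, and calsequestrin 2, made from Casq2, binds the stored calcium. The SERCA2 pump, made from Atp2a2, returns calcium to the store under the brake of phospholamban, made from Pln, and the sodium-calcium exchanger, made from Slc8a1, expels the rest from the cell. Lower SERCA2 activity is a long known feature of failing hearts.

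Each value was taken as a log2 ratio of ventricle RNA over the RNA of a pool of 14 rat cell lines, which was the reference on every array. The title of a deposited table says log10, but the values ran from -13.6 to 14.0, too wide for log10 ratios of scanner intensities, and every fold here rests on base 2. A value of 0 is thus the level of that reference, and ratios of different probes cannot be ranked against each other as expression levels. Each animal entered once, as the mean of its arrays, and the 40 arrays were 8 of SuHx+carvedilol, 12 of SuHx, 12 of hypoxia and 8 of normal animals. Nothing in the labels says that arrays of different animals shared a batch. Spots with a value averaged 28432 per animal in SuHx+carvedilol, 28141.5 in SuHx, 26035 in hypoxia and 33254 in normal animals, of 43379 spots. The SD of the log2 ratios of an array averaged 1.98, 1.88, 2.07 and 1.69 in the same 4 groups. Over all tested probes the median difference was -0.36 for hypoxia against normal, -0.14 for SuHx against normal and 0.22 for SuHx against hypoxia. It was -0.18 for SuHx+carvedilol against SuHx and -0.31 for SuHx+carvedilol against normal. The differences of each comparison below should be read against its own median. The number of animals limits the precision, with a median standard error of 0.50 on the log2 scale for a difference between hypoxia and normal animals.

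Heart muscle markers matched the labelled tissue, since 20 of 22 listed cardiomyocyte genes other than the 6 members were tested and lay well above the reference. The mean log2 ratio over 27 of their probes had a median of 6.05 in SuHx+carvedilol animals, with a range of 5.28 to 6.95. It had a median of 5.14 in SuHx, 4.56 in hypoxia and 4.57 in normal animals, with ranges of 4.73 to 5.47, 4.26 to 5.12 and 4.08 to 5.04. The carvedilol animals thus lay above every hypoxia and normal animal, and overlapped in part with SuHx animals. In bulk tissue, fewer cells of a type and less RNA per cell cannot be told apart.

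**Figure D1:**
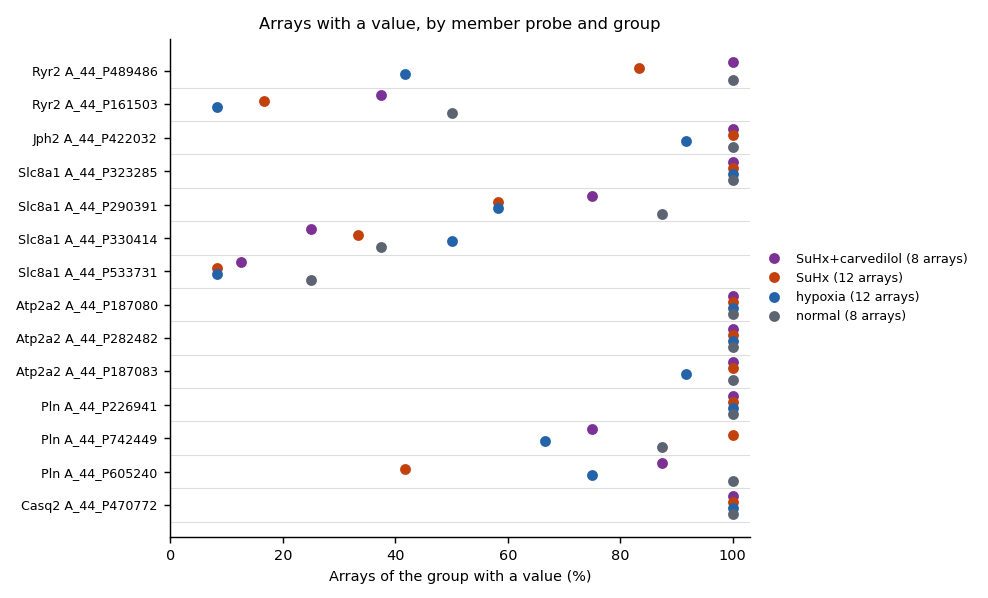
Percent of the arrays of each group (x axis) on which each of the 14 member probes (y axis) had a value, with 8 SuHx+carvedilol, 12 SuHx, 12 hypoxia and 8 normal arrays. The probe Ryr2 A_44_P489486 had a value on 5 of 12 hypoxia arrays and on all 8 normal arrays, while Casq2 and 2 of the 3 Atp2a2 probes had one on every array.

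How completely the 14 probes were measured differed between them. The probes Casq2 A_44_P470772, Atp2a2 A_44_P187080 and A_44_P282482, Pln A_44_P226941 and Slc8a1 A_44_P323285 had a value on all 40 arrays. The 3 probes that were not tested were Ryr2 A_44_P161503, with values in 3 SuHx+carvedilol, 2 SuHx, 1 hypoxia and 3 normal animals, Slc8a1 A_44_P330414, with 2, 4, 3 and 3 animals, and Slc8a1 A_44_P533731, with 1, 1, 1 and 2 animals. The other 6 probes were measured in at least 4 animals of each group. Among the tested member probes, that of the release channel Ryr2 had the most gaps in hypoxia. It was filled on 41.7% of hypoxia arrays, against 100% of normal arrays. The average tested probe was filled on 82.6% of hypoxia and 96.5% of normal arrays. Slc8a1 A_44_P290391 was filled on 7 of 12 hypoxia arrays. The untested probes Ryr2 A_44_P161503 and Slc8a1 A_44_P533731 were each filled on 1.

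Hypoxia against normal asks how the ventricle that adapts differs from an unloaded one. The release genes Ryr2 and Jph2 and 2 of the 3 probes of the pump gene Atp2a2 fell, so that 4 of 11 member probes were called lower and 0 higher at a limma adjusted p under 0.05. Of all 21567 probes, 10.7% were called in this comparison and 9.78% were called lower. The median difference of the 11 probes was -0.65, against -0.36 for all tested probes. Casq2, the 3 Pln probes and both Slc8a1 probes did not pass.

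SuHx against normal asks how the failing ventricle differs from an unloaded one, and limma called 0 of 11 member probes, where 0.686% of all probes were called. At an unadjusted p under 0.05 it had 1 of 11, the probe Atp2a2 A_44_P187080, where 12.8% of all probes passed. With weights for the animals this probe was called, at -0.57 with an adjusted p of 0.0108, where 9.88% of all probes were called. In 14 of the 15 settings other than the reported one, and in all 12 fits without 1 animal, it was not called. No member probe had SuHx and normal animals without overlap, where 5.6% of all probes did. The median difference of the members was -0.10, against -0.14 for all tested probes.

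SuHx against hypoxia sets the 2 loaded ventricles against each other, and the release genes Ryr2 and Jph2 were higher in SuHx. These were 2 of 11 member probes, both called higher, where 10.8% of all probes were called and 8.52% were called higher. The groups differed in SU5416 and also in room air, since SuHx animals had 2 weeks of it after hypoxia and hypoxia animals 0, and these cannot be told apart. Both comparisons with hypoxia rest on the same hypoxia animals, of which 4 had a value for Ryr2 and 5 for Jph2. Ryr2 and Jph2 were also 2 of the 11 probes whose SuHx and hypoxia animals did not overlap, where 7.74% of all probes did not overlap.

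SuHx+carvedilol against SuHx asks what the drug, together with 2 more weeks in room air, changed, and limma called 0 of 11 member probes, where 1.33% of all probes were called, 0.621% higher and 0.709% lower. At an unadjusted p under 0.05, which 16.8% of all probes passed, there were 4 of 11. These were Ryr2, Slc8a1 A_44_P290391, Atp2a2 A_44_P282482 and Pln A_44_P226941. In SuHx+carvedilol against normal, 3 member probes rose, 1 each of Pln, Atp2a2 and Casq2, and the Slc8a1 probe A_44_P290391 fell. These were 4 of 11, where 9.52% of all probes were called, 2.19% higher and 7.33% lower.

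**Figure D2:**
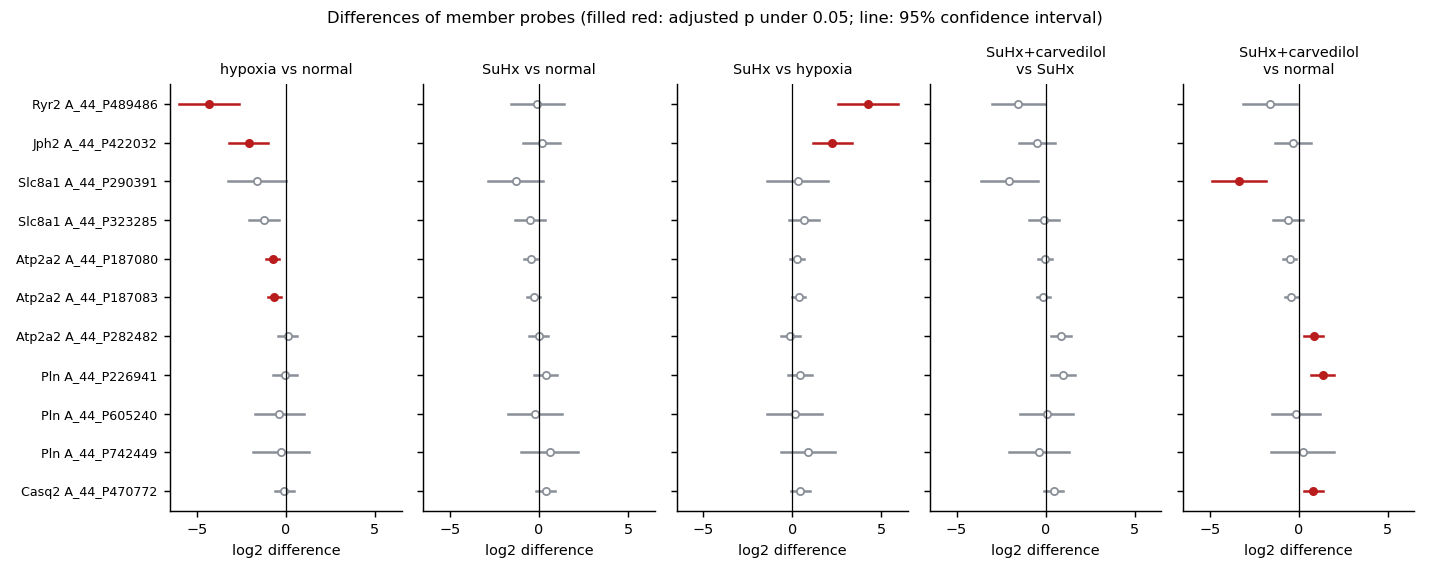
Differences in log2 ratio (x axis) of the 11 tested member probes (y axis) in the 5 comparisons, each as the first group minus the second. Points are limma estimates, lines their 95% confidence intervals, and filled red points have an adjusted p under 0.05 over 21567 probes; Ryr2 fell by 4.33 in hypoxia against normal animals.

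Ryr2, the release channel, showed the largest difference of any member probe in the 5 comparisons. Its tested probe A_44_P489486 had log2 ratios of 1.81, 3.26, -1.14 and 0.33 in the 4 hypoxia animals with a value. In the 6 normal animals it ran from 4.18 to 5.93, with a median of 5.59. Every hypoxia value lay below every normal value, and hypoxia animals 5 and 6 had no value. The difference of -4.33 ± 0.81 (SE, n = 4 hypoxia and 6 normal animals) is a 20.2-fold lower ratio, with an adjusted p of 0.00206. Of the 21567 tested probes, 7 differed by as much or more in this direction, Ryr2 included. Its 4 hypoxia values came from 5 arrays, since hypoxia animal 2 had 2 arrays with a value and animals 1, 3 and 4 had 1 each. Among the 2242 tested probes with values in 4 hypoxia animals, 5.04% were called, against 10.7% of all. Of the 7 probes as low as Ryr2, 4 were among these 2242, and 2 among the 14778 measured in all 6 hypoxia animals.

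In SuHx animals Ryr2 had log2 ratios of 4.09 to 6.86 with a median of 5.19, again without overlap with hypoxia. The difference of SuHx from hypoxia was 4.24 ± 0.81 (SE, n = 6 SuHx and 4 hypoxia animals, adjusted p = 0.00224). SuHx and normal animals differed by -0.10, with a 95% confidence interval of -1.60 to 1.41. SuHx+carvedilol animals were spread from 1.21 to 5.72 with a median of 3.92, and 3 of them lay below the highest hypoxia animal. Their difference from SuHx was -1.53 with an interval of -3.03 to -0.02 (adjusted p = 0.291), and from normal -1.62 with an interval of -3.13 to -0.12 (adjusted p = 0.163). With arrays scaled to equal spread the second of these was called, at -2.44 with an adjusted p of 0.0258.

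The other Ryr2 probe, A_44_P161503, was too sparse to test. It had 4.56, 5.11 and 6.03 in 3 SuHx+carvedilol animals, 4.72 and 4.96 in 2 SuHx animals, 0.80 in 1 hypoxia animal and 5.67, 5.76 and 6.41 in 3 normal animals. The single hypoxia value was the lowest of the 9.

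Jph2, which builds the junction at which release happens, moved the same way as Ryr2. Its probe A_44_P422032 had log2 ratios of 0.43, -0.63, 0.85, 1.08 and -0.12 in 5 hypoxia animals. In normal animals it ran from 0.89 to 3.45 with a median of 3.05, and normal animals 3 and 4, at 0.89 and 0.92, lay within the hypoxia range. The other 4 normal animals were at 3.01 or above. The difference was -2.10 ± 0.52 (SE, n = 5 hypoxia and 6 normal animals), a 4.29-fold lower ratio with an adjusted p of 0.0127. Fitted on these 2 groups alone, the same difference had an adjusted p of 0.0561.

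All 6 SuHx animals, from 1.83 to 3.17 with a median of 2.52, had a higher Jph2 ratio than the 5 hypoxia animals measured. SuHx exceeded hypoxia by 2.25 ± 0.52 (SE, n = 6 SuHx and 5 hypoxia animals, adjusted p = 0.00805), a 4.76-fold difference. From normal SuHx differed by 0.15, with an interval of -0.88 to 1.18. SuHx+carvedilol animals ran from 0.17 to 2.74 with a median of 2.43, and only animal 1 lay among the hypoxia values.

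**Figure D3:**
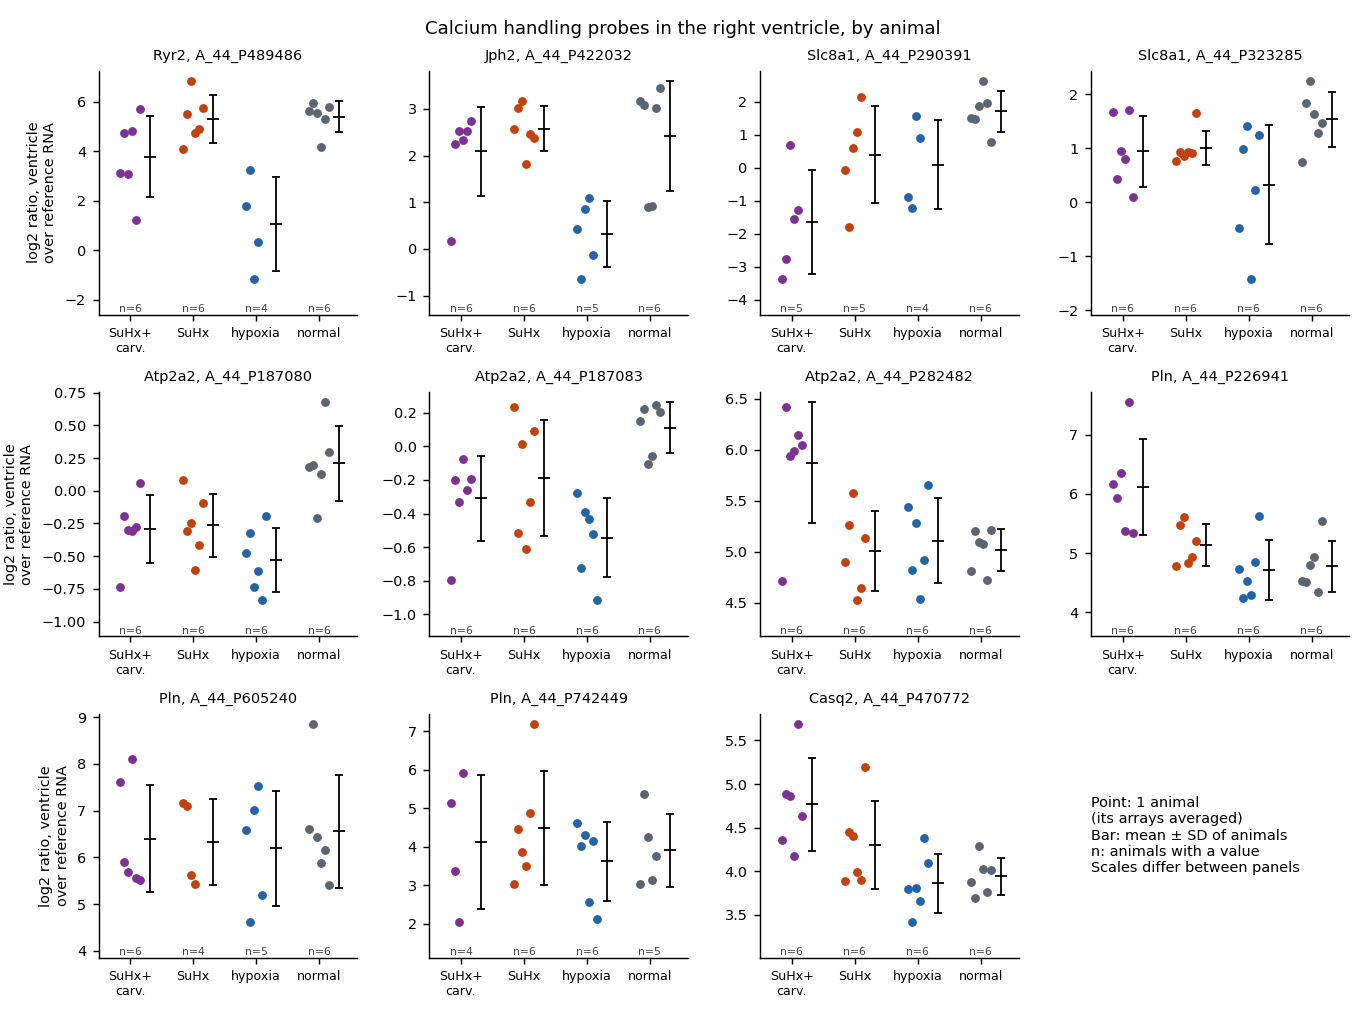
Log2 ratio of ventricle over reference RNA (y axis, scales differ) for the 11 tested member probes, by group, with SuHx+carvedilol, SuHx, hypoxia and normal from left to right. Points are animals with their arrays averaged, bars are the mean and SD, and n is the number of animals with a value; for Ryr2 the hypoxia animals lie between -1.14 and 3.26, below every SuHx and normal animal, with 3 carvedilol animals also under 3.26.

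Casq2, the calcium buffer of the store, did not pass in hypoxia. Its probe A_44_P470772 had a value in all 24 animals and lay between 3.42 and 4.38 in hypoxia animals, with a median of 3.81, against 3.70 to 4.29 in normal animals, with a median of 3.94. The difference was -0.08 with an interval of -0.61 to 0.45 (adjusted p = 0.881), so that a fall of the size of Jph2's lies outside the interval. In SuHx animals it ran from 3.89 to 5.20 with a median of 4.20. SuHx exceeded hypoxia by 0.44, with an interval of -0.08 to 0.97, and did not pass.

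In SuHx+carvedilol animals Casq2 ran from 4.17 to 5.69 with a median of 4.75, overlapping with the highest normal animal. It was 0.83 ± 0.25 higher than in normal animals (SE, n = 6 each, adjusted p = 0.0424), a 1.77-fold difference. That call sat close to the threshold, since it was lost in 9 of 12 fits that left out 1 animal, and with arrays scaled to equal spread the difference was 0.10 (adjusted p = 0.854). With the same scaling, Casq2 was 0.91 lower in hypoxia than in normal animals (difference -0.91, adjusted p = 0.0225) and 1.02 higher in SuHx than in hypoxia (adjusted p = 0.0134).

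Atp2a2, the pump gene, was read by 3 probes, of which 2 were called in hypoxia. A_44_P187080, printed as 10 spots on each array, had log2 ratios of -0.84 to -0.19 in hypoxia animals with a median of -0.54, against -0.21 to 0.68 in normal animals with a median of 0.19. Hypoxia and normal animals overlapped by 1 animal of each group. The difference was -0.74 ± 0.18 (SE, n = 6 each, adjusted p = 0.011), a 1.67-fold lower ratio. A_44_P187083 ran from -0.91 to -0.28 in hypoxia animals and from -0.10 to 0.25 in normal animals, without overlap. Its difference was -0.65 ± 0.18 (SE, n = 6 each, adjusted p = 0.0235), and it was 1 of the 2 member probes whose hypoxia and normal animals did not overlap, Ryr2 being the other, where 6.83% of all probes did not.

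The third pump probe, A_44_P282482, gave another picture, with log2 ratios near 5 in place of 0. It ran from 4.54 to 5.65 in hypoxia animals with a median of 5.10, against 4.72 to 5.21 in normal animals with a median of 5.09. The difference was 0.09, with an interval of -0.45 to 0.63 (adjusted p = 0.867). With arrays scaled to equal spread it turned to -0.996 and was called (adjusted p = 0.0227). Atp2a2 makes both a muscle and a general form of the pump by splicing, and which of them each probe reads is not given in the sources used here. Averaged over its probes, the gene differed by -0.44 and did not pass (adjusted p = 0.107).

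In SuHx against normal animals the 3 pump probes differed by -0.48 (A_44_P187080, adjusted p = 0.234), -0.30 (A_44_P187083, adjusted p = 0.543) and -0.01 (A_44_P282482, adjusted p = 0.992). The interval of the first, -0.85 to -0.10, lay below 0, and it missed the threshold after adjustment. SuHx+carvedilol animals had A_44_P282482 ratios of 4.71 to 6.42 with a median of 6.02, against 4.53 to 5.57 in SuHx animals with a median of 5.02. In 5 of 6 carvedilol animals it was above every other animal of the study, and carvedilol animal 1 lay low. The difference from normal was 0.85 ± 0.26 (SE, n = 6 each, adjusted p = 0.0397), and from SuHx 0.87 ± 0.26 (adjusted p = 0.0962). Without carvedilol animal 1 the difference from SuHx was 1.10 and was called (adjusted p = 0.0193). It was not called in 11 of the 12 fits without 1 animal, nor in 13 of 15 other settings. The probes A_44_P187080 and A_44_P187083 differed from SuHx by -0.03 (adjusted p = 0.96) and -0.12 (adjusted p = 0.781).

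The call of this probe against normal depended on the settings, and the other 2 pump probes lay on the other side of 0. It lost its call in 11 of 12 fits without 1 animal, was 0.35 after quantile normalisation (adjusted p = 0.426) and -0.04 with arrays scaled to equal spread (adjusted p = 0.953). The probes A_44_P187080 and A_44_P187083 differed by -0.50 (adjusted p = 0.0799) and -0.42 (adjusted p = 0.143). Within groups, deviations from the group mean correlated between the first and the second of these probes with r = 0.47, and between each of them and A_44_P282482 with r = 0.41 and r = 0.37, over 24 animals that share their arrays.

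Pln, the brake of the pump, was read by 3 probes and did not pass in hypoxia. A_44_P226941, measured on every array, ran from 4.24 to 5.63 in hypoxia animals with a median of 4.64, against 4.34 to 5.54 in normal animals with a median of 4.67. The difference was -0.06 with an interval of -0.73 to 0.61. The sparser probes A_44_P605240 and A_44_P742449 differed by -0.37 and -0.28, with intervals that reached from -1.76 to 1.03 and from -1.86 to 1.30. These intervals are too wide to tell a fall from a rise. With arrays scaled to equal spread, A_44_P226941 was lower in hypoxia, at -1.11 with an adjusted p of 0.0128.

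SuHx animals had A_44_P226941 ratios of 4.78 to 5.61 with a median of 5.07, and differed from normal by 0.36 (adjusted p = 0.736). SuHx+carvedilol animals ran from 5.35 to 7.55 with a median of 6.04, and 4 of the 6 lay above every SuHx animal. Against normal animals Pln A_44_P226941 rose by 1.34 ± 0.32 (SE, n = 6 each, adjusted p = 0.0114), a 2.53-fold difference. Against SuHx it was 0.98 ± 0.32 higher without passing (adjusted p = 0.13). With arrays scaled to equal spread the rise against normal was 0.42 (adjusted p = 0.376), and averaged over its 3 probes the gene differed by 0.52 and did not pass (adjusted p = 0.416). The other Pln probes differed from normal by -0.16 and 0.22 in the same comparison, with intervals of -1.49 to 1.17 and -1.53 to 1.97, and did not deviate together with it within groups (r = -0.33 and r = -0.17 over 21 animals each).

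Slc8a1, which expels calcium across the surface membrane, was noisy on this array. Its best covered probe, A_44_P323285, is printed as 10 spots, of which 67.5% had a value on SuHx+carvedilol arrays, 54.2% on SuHx, 44.2% on hypoxia and 73.8% on normal arrays. The median SD between its spots on 1 array was 1.56, 1.77, 1.62 and 0.85 in these groups, whereas the 10 spots of Atp2a2 A_44_P187080 all had values and a median SD of 0.07, 0.07, 0.16 and 0.08. The exchanger probe ran from -1.42 to 1.41 in hypoxia animals with a median of 0.60, against 0.75 to 2.26 in normal animals with a median of 1.55. The difference of -1.21 ± 0.41 (SE, n = 6 each) had an adjusted p of 0.058.

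That value lies at the edge of the threshold. The probe was called with quantile normalisation (-1.31, adjusted p = 0.0196), with equal spread (-1.40, adjusted p = 0.0131), among probes filled on every array (adjusted p = 0.0262) and without hypoxia animal 2, 3 or 6 (adjusted p = 0.0483, 0.0268 and 0.0347). Averaged with A_44_P290391 it differed by -1.29 (adjusted p = 0.0361). In 11 of the 15 settings other than the reported one it was not called, with adjusted p up to 0.146. Nor was it called in 9 of 12 fits without 1 animal, with adjusted p up to 0.125. Among probes filled on every array its difference was unchanged at -1.21, and 24.1% of all such probes were called. SuHx animals ran from 0.77 to 1.65, with 5 of the 6 within 0.77 to 0.93, and SuHx+carvedilol animals from 0.09 to 1.70. Neither group passed against normal, at -0.53 (adjusted p = 0.664) and -0.60 (adjusted p = 0.38).

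The second exchanger probe, A_44_P290391, had log2 ratios of -3.36, -2.76, 0.70, -1.55 and -1.28 in 5 SuHx+carvedilol animals. In normal animals it ran from 0.79 to 2.64 with a median of 1.68, above every carvedilol animal. The difference was -3.35 ± 0.73 (SE, n = 5 SuHx+carvedilol and 6 normal animals, adjusted p = 0.00775), a 10.2-fold lower ratio. It was the 1 member probe whose carvedilol and normal animals did not overlap, where 9.53% of all probes did not. SuHx animals had -0.07, -1.80, 0.59, 1.07 and 2.15, so that carvedilol and SuHx animals overlapped, and their difference of -2.04 did not pass (adjusted p = 0.189).

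The 2 exchanger probes did not deviate together within groups (r = -0.03 over 20 animals). Arrays of 1 animal differed as much as animals of 1 group for A_44_P290391, with an SD of 1.68 between arrays of an animal and 1.27 between animals of a group. On the first array of each animal alone, the SuHx+carvedilol difference of A_44_P290391 from normal was -3.34 with an adjusted p of 0.0869. With animal numbers over 100 as a term it was -4.42 (adjusted p = 0.152). Averaged over the 2 probes, the gene differed from normal by -1.83 and was called (adjusted p = 0.00488). The untested probe A_44_P330414 averaged 1.11 in 2 SuHx+carvedilol animals, 0.99 in 4 SuHx, 0.44 in 3 hypoxia and -0.18 in 3 normal animals, and A_44_P533731 had values from -0.37 to 2.23 in 5 animals.

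Precision differed as widely across the members. The SD between animals of a group was 0.26 for both low-ratio Atp2a2 probes, 0.42 for Casq2, 0.55 for Pln A_44_P226941, 0.88 for Jph2 and 1.31 for Ryr2. The SD between arrays of an animal was 0.22 for Atp2a2 A_44_P187080, 0.83 for Jph2 and 1.10 for Ryr2. A fall of about 0.7 was thus called for the pump probes, while a difference of -1.61 of Slc8a1 A_44_P290391 in hypoxia was not (adjusted p = 0.201).

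The sequences before the annotated starts of 3 members are shown. In hypoxia, Ryr2 and the Atp2a2 probes A_44_P187080 and A_44_P187083 were called lower, and Casq2 did not pass. The Atp2a2 probe A_44_P282482 and the gene averaged over its probes did not pass either. They are the 250 bases upstream of the start in RefSeq's annotation of the rat assembly GRCr8, on the strand of the gene. Capitals mark matches on either strand to the E-box, whose letters are CANNTG, and to the Sp1 site, which is written GGGCGG and is called the GC box here. They also mark the MEF2 motif and the site bound by transcription factors of the GATA family, written GATAA.
Ryr2, chr17:63081277-63081526, plus strand: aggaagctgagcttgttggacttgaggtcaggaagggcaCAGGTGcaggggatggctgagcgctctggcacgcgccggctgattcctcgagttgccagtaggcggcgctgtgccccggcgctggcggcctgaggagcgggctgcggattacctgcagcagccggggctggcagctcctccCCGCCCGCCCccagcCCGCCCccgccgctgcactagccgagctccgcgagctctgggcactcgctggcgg
Atp2a2, chr12:39733269-39733518, plus strand: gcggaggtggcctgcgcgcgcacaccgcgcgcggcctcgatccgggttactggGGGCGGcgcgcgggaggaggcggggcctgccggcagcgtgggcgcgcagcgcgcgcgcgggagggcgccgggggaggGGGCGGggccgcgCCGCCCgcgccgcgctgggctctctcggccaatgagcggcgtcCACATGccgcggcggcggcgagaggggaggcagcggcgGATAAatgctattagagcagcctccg
Casq2, chr2:192214306-192214555, plus strand: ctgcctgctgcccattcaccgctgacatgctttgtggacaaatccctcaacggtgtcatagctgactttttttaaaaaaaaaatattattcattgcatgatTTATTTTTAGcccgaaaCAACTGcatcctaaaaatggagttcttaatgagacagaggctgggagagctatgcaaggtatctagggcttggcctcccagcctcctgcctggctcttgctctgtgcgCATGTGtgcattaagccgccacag

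Ryr2 and Atp2a2 had GC-rich windows, with 72.0% and 80.0% G or C and 3 matches to the GC box each, in the Ryr2 window 2 of them overlapping. Casq2 had 46.4% G or C, no GC box, 2 E-boxes and 1 MEF2 match. Of 33469 rat promoters of the same length, 30.5% held a GC box, 65.5% an E-box, 23.5% the GATA motif and 2.96% the MEF2 motif, and the median G or C content was 51.2%. None of these 3 windows held the core of the hypoxia response element, written ACGTG, which 16.6% of all promoters held. Neither the muscle motif M-CAT, written CATTCC and held by 12.1% of promoters, nor the CArG box, held by 1.5%, was found in them. The windows of Jph2, Pln and Slc8a1 lie inside the annotated span of their own gene and are not shown; they held 0, 2 and 1 matches in all. A match is a description of these letters and says nothing on binding.

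The probes whose pattern over the animals was most like each member were found by Pearson correlation over at least 20 shared animals. Ryr2 was most like Fbxo6 (r = 0.909, 22 animals), Mast2 (r = 0.885, 21 animals) and Ino80c (r = 0.884, 21 animals). Jph2 was most like Srp68 (r = 0.931, 23 animals), Ptges2 (r = 0.929, 22 animals) and Atp5f1a (r = 0.91, 23 animals). Pln A_44_P226941 was most like the muscle genes Csrp3 (r = 0.954), and Acta1 (r = 0.918), with Akr1c15 between them (r = 0.934), over 24 animals.
Casq2 was most like Pdlim3 (r = 0.893), Fxyd1 (r = 0.885) and Hbb-b1 (r = 0.843), and Atp2a2 A_44_P282482 most like Chmp2a (r = 0.836), Pam (r = 0.807) and Tpm1 (r = 0.803), each over 24 animals. Slc8a1 A_44_P323285 was most like Ceacam20 (r = 0.818, 22 animals), Cdv3 (r = 0.817) and Jade2 (r = 0.816), both over 24 animals. These are the highest of 11434 to 12503 correlations per member between probes of the same arrays, and Fbxo6, Mast2 and Ino80c shared only the animals in which Ryr2 had a value.

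Other genes of calcium handling were counted from 7 lists with 118 genes, of which 85 were tested with 130 probes. In hypoxia against normal, 12 of the 130 probes fell and 1 rose, which is 10.0% called against 10.7% of all probes. Their median difference was -0.54. Around the release channel, 2 of 30 probes of partners fell, Tmem38a (-2.002, adjusted p = 0.0137), a potassium channel of the reticulum that balances the charge of release, and Akap6 (-2.33, adjusted p = 0.0446), an anchor of protein kinase A. Of 22 probes for entry channels 1 fell, Rrad (-2.60, adjusted p = 0.00117), an inhibitor of the L-type channel. Of 21 probes for pump regulators and stores 2 fell. These were Casq1 (-1.65, adjusted p = 0.0388), the calsequestrin of skeletal muscle, and Calu (-0.80, adjusted p = 0.021), a calcium-binding protein of the secretory pathway. The other Calu probe differed by -1.23 and did not pass.

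Of 7 probes for removal across the surface membrane 1 fell, Atp1b1 (-1.09, adjusted p = 0.00421), a subunit of the sodium pump. In the list of calmodulin kinase and calcineurin, 2 of 24 probes fell, Hdac5 A_44_P1024065 (-1.27, adjusted p = 0.000111) and Mef2a A_44_P752074 (-2.12, adjusted p = 0.0198). The other probes of these genes differed by -0.52 for Hdac5 and by -0.39 and -1.45 for Mef2a, and did not pass. Ppp3r1, the regulatory subunit of calcineurin, rose by 1.13 (adjusted p = 0.0257). The mitochondrial list had 1 of 10 called, Micu2 (-0.58, adjusted p = 0.018), and the list of IP3 receptors and their regulators 3 of 16, the phospholipases Plcg1, Plcb4 and Plcb3 (-1.37, -1.50 and -1.41).

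In SuHx against normal, 1 of the 130 probes rose and 1 fell, 1.54% against 0.686% of all. These were Rcan1, a feedback inhibitor of calcineurin (1.41, adjusted p = 0.00757), and Nfatc4, a transcription factor that calcineurin activates (-1.50, adjusted p = 0.0397). In SuHx against hypoxia 16 rose and 5 fell, 16.2% against 10.8% of all. Among partners of the release channel these were Tmem38a (2.11, adjusted p = 0.00963), Akap6 (2.28, adjusted p = 0.0485) and 1 of 4 probes of Fkbp1a, which binds the channel (0.74, adjusted p = 0.0295). Among entry channels Rrad (2.45, adjusted p = 0.00167) and the T-type channel Cacna1g (2.55, adjusted p = 0.0485, 4 animals a group) were higher. The store-operated channel subunit Orai2 was higher by 1 probe (1.10, adjusted p = 0.0427), and its other probe differed by 0.31 without passing. Casq1 (2.70, adjusted p = 0.00163), Calu (0.90, adjusted p = 0.00933) and Ppp1cc, a catalytic subunit of protein phosphatase 1 (0.91, adjusted p = 0.0173), were the higher ones of the pump regulators and stores. The other Calu probe differed by 0.46 and did not pass.

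For removal across the surface membrane, Atp1b1 was higher in SuHx than in hypoxia (0.90, adjusted p = 0.0139), and the plasma membrane pump Atp2b1 was lower by 1 of its 4 probes, A_44_P307971 (-3.02, adjusted p = 0.0211). The other Atp2b1 probes differed by 0.02, 0.84 and -0.19 and did not pass, so the probes of this gene disagree. In the calcineurin list Hdac5 A_44_P1024065 (0.91, adjusted p = 0.00187) and Rcan1 (1.15, adjusted p = 0.00318) were higher and Ppp3r1 lower (-1.08, adjusted p = 0.0303). The other Hdac5 probe differed by 0.62 and did not pass. Ppp3ca, a catalytic subunit of calcineurin, was lower by 2 of 4 probes (-0.54 and -0.73). Vdac1, a channel of the outer mitochondrial membrane, was higher by 2 of 4 probes (1.13 and 1.77), while the others differed by -0.37 and 0.36. Of the IP3 list, Plcb4 (1.37, adjusted p = 0.0176) and Plcb3 (1.14, adjusted p = 0.0411) were higher, and Itprid2 was lower by 1 probe (-1.52, adjusted p = 0.0208) and at 0.53 by the other, which did not pass.

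In SuHx+carvedilol against SuHx, 1 of the 130 probes rose, Itpr3, an IP3 receptor (1.07, adjusted p = 0.0285), and 1 fell, Hdac5 A_44_P473020 (-2.47, adjusted p = 0.00608), which is 1.54% against 1.33% of all. The other probes of these genes differed by 0.06 for Itpr3 and 0.14 for Hdac5 and did not pass. In SuHx+carvedilol against normal, 6 rose and 8 fell, 10.8% against 9.52% of all. Among partners of the release channel, Hrc, a calcium-binding protein of the store, rose (1.37, adjusted p = 0.00403). Of Trdn, which ties calsequestrin to the channel, the probe A_44_P191715 fell (-4.80, adjusted p = 0.0173) and A_44_P123550 differed by 0.63 without passing, so its probes disagree. Calm3, a calmodulin gene, fell by 1 probe (-0.87, adjusted p = 0.0228), and its other probe differed by -0.56 without passing. Both probes of S100a1, a calcium sensor that binds the release channel, fell (-0.86 and -0.87). Fxyd1, the sodium pump regulator phospholemman, rose by 2.52 (adjusted p = 0.00059) while Atp1b1 fell (-0.78, adjusted p = 0.0342). In the calcineurin list Rcan1 rose by 1.48 (adjusted p = 0.000471) and Ppp3r1 by 1.15 (adjusted p = 0.023), and 1 probe each of Hdac5 (A_44_P473020, -2.37, adjusted p = 0.00128) and Ppp3cb, a catalytic subunit of calcineurin (-0.996, adjusted p = 0.0241), fell. Of the IP3 list 1 probe of Ero1a, an oxidase of the reticulum, rose (0.67, adjusted p = 0.0138).

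**Figure D4:**
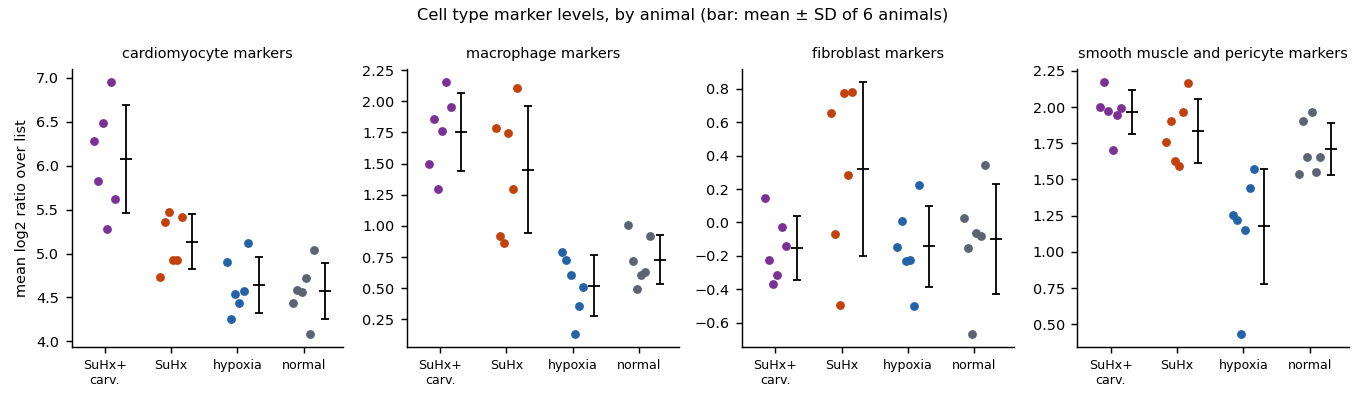
Mean log2 ratio over the probes of 4 marker lists (y axis) in each animal, with SuHx+carvedilol, SuHx, hypoxia and normal from left to right; bars are the mean and SD of 6 animals. Cardiomyocyte markers lay at 5.28 to 6.95 in SuHx+carvedilol and at 4.08 to 5.04 in normal animals.

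The cardiomyocyte markers moved with the members that rose in carvedilol animals. In SuHx+carvedilol against normal, 22 of 33 cardiomyocyte probes other than the members rose and 0 fell. Of all probes, 2.19% were called higher and 7.33% lower in this comparison. The median difference of the cardiomyocyte probes was 1.59, against -0.31 for all tested probes. The differences of Pln A_44_P226941, Casq2 and Atp2a2 A_44_P282482, at 1.34, 0.83 and 0.85, lay below that median. Troponin T, Tnnt2, had log2 ratios of 7.36 in SuHx+carvedilol and 4.34 in normal animals. Macrophage markers were higher in 6 of 21 probes, atrial muscle markers in 5 of 15, endothelial markers in 4 of 18, smooth muscle and pericyte markers in 1 of 13 and erythroid markers in 1 of 5, with 0 lower in each, and 0 of 16 fibroblast probes were called. The mean level of the atrial list ran from 1.91 to 4.46 in SuHx+carvedilol and from 2.20 to 2.99 in normal animals, and that of the macrophage list from 1.30 to 2.16 and from 0.49 to 1.01. The part of these shifts in the members' values was not tested.

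In hypoxia against normal, 2 of the 33 cardiomyocyte probes (6.06%) fell and 0 rose. Of all probes, 9.78% were called lower and 0.923% higher in this comparison. The median difference of the cardiomyocyte probes was 0.05, against -0.36 for all tested probes. The 2 that fell were Myom2 A_44_P470630 (-3.00, adjusted p = 0.0236, 4 animals a group) and Ldb3 A_44_P153437 (-1.61, adjusted p = 0.0401). The other Myom2 probe differed by 0.94 and the other Ldb3 probes by 0.61, 0.14 and 0.83. None of these passed, so the probes of both genes disagree. Markers of smooth muscle and pericytes had a median level of 1.24 in hypoxia and 1.66 in normal animals with 1 of 13 probes called, and macrophage markers 0.56 and 0.67 with 0 of 21. Endothelial markers had 3 of 18 probes lower and 1 higher, fibroblast markers 1 of 16 lower and erythroid markers 1 of 5 lower. Atrial muscle, a sign of tissue beyond the ventricle, had 2 of 15 probes lower, and the atrial light chain Myl7 read 2.33 in hypoxia and 5.15 in normal animals by A_44_P143715, but 4.50 and 4.27 by A_42_P808008.

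In SuHx against hypoxia, 8.52% of all probes were called higher and 2.33% lower. Macrophage markers rose in 7 of 21 probes (33.3%), atrial muscle markers in 3 of 15 (20.0%) and fibroblast markers in 3 of 16 (18.8%). Cardiomyocyte markers rose in 5 of 33 (15.2%). Smooth muscle and pericyte markers rose in 1 of 13 (7.69%), near the share of all probes. Endothelial markers had 3 of 18 probes higher and 2 lower, and 0 of 5 erythroid probes were called. The fibroblast gene Postn, periostin, had the largest of the fibroblast differences (3.92, adjusted p = 0.00187, n = 5 SuHx and 4 hypoxia animals by limma). The median macrophage level was 1.52 in SuHx and 0.56 in hypoxia animals. Whether these cells contribute to the members' differences was not tested.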

How the data were processed

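Per the series' design text, Cy5-labelled ventricle RNA and a Cy3-labelled common reference were hybridised to Agilent rat arrays, read with GenePix Pro, and the authors applied a lowess normalisation (marray). The authors deposited log ratios of sample over reference per spot, read here as log2 from their range although a deposited title says log10. Probe names were given to 43301 of 43379 spots by matching their values over the 40 arrays, to 6 decimals, to the deposited text table that holds the names. How background was corrected and why 34.9% of cells were empty is not stated there, and intensities were not analysed here. Spots of a probe and then arrays of an animal were averaged. Of 43379 spots, 25353 had 1 gene in the platform annotation, 48 several and 17978 none. Probes with values in at least 4 animals of every group (21567) were fitted with limma 3.58.1 in R 4.3.3, on all 24 animals with 1 mean per group, and each difference was estimated directly. Calls are Benjamini-Hochberg adjusted p under 0.05 over these probes, two-sided. The ± of differences is the model's SE. The code was tested on simulated data. The report names every member probe, up to 4 called genes of a list by lowest adjusted p, and the 3 genes of most similar pattern. The 6 genes and all lists were chosen with earlier results of these data known, so no count over them is independent support. Other scalings, filters, weights, blocks and left-out animals were tried as alternatives. Probe sequences and proteins were not analysed here.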

Additional observations from a re-analysis of the deposited data

Results flagged for a closer look

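Groups of 4 to 6 animals with values of a member probe were checked, 45 in all. In 6 cases an animal stood apart from its group by a gap beyond the 95% limit of Dixon's test. Chance alone gives about 1 in 20, but cases that share an animal and its arrays are not independent. SuHx+carvedilol animal 1 was the lowest of its group in 3 of the 6 cases: at 0.17 for Jph2 (next animal 2.24), at 4.71 for Atp2a2 A_44_P282482 (next animal 5.94) and at -0.80 for Atp2a2 A_44_P187083 (next animal -0.33). SuHx animal 6 was highest for Slc8a1 A_44_P323285 at 1.65. Normal animal 4 was lowest for Ryr2 at 4.18, and normal animal 2 was highest for Pln A_44_P605240 at 8.86.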

How the results depend on the processing

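The falls of Ryr2 in hypoxia against normal and the rises of Ryr2 and Jph2 in SuHx against hypoxia kept their calls in the 14 other settings that tested these probes and in the 12 fits without 1 animal, with Ryr2 between -5.07 and -3.48 and between 3.14 and 5.51, and Jph2 between 2.01 and 2.61. Of 11 member probes (12 with values in 2 animals a group), the number called moved as follows. In hypoxia against normal it was 4 as reported (10.7% of all probes) and 8 with arrays scaled to equal spread (17.2%). It was 2 among the 5 member probes filled on every array, where 24.1% of all such probes were called. With these 2 groups fitted alone it was 1 (4.89%). In SuHx against normal it was 1 with animal weights (9.88% of all probes), against 0 (0.686%). In SuHx against hypoxia it was 4 with equal spread (13.5% of all probes), against 2 (10.8%). It was 0 among probes filled on every array (26%), where neither Ryr2 nor Jph2 was tested. In SuHx+carvedilol against SuHx it was 0 as reported (1.33% of all probes). It was 1 among probes filled on every array (4.88%) and 1 with single arrays and the animal as a random block (3.98%). It was 2 with animal weights (7.28%) and 0 to 1 without an animal (0.362 to 1.56%). In SuHx+carvedilol against normal it was 2 with quantile normalisation, 2 with equal spread, 2 with values in 2 animals a group, 1 on first arrays, 2 with the 2 groups fitted alone, 0 with animal numbers over 100 as a term, and 2 to 4 without an animal, against 4. Every carvedilol animal and hypoxia animals 5 and 6 carry such a number, so that in the carvedilol group number and treatment cannot be told apart.

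Atp2a2 A_44_P282482 changed sign with equal spread, to -0.996 in hypoxia and -0.0356 in SuHx+carvedilol against normal, and to -0.0238 when probes of the gene were averaged; the cause was not tested. Atp2a2 A_44_P187083 lost its call in hypoxia in 7 of 14 settings and without normal animal 2 or 5 (adjusted p = 0.052 and 0.053). Of 1167 fits in which a probe was called neither in the reported nor in the other setting, 94 gave the other sign. With the replicate number as a block, 3 member probes were called in hypoxia against normal, where 8.83% of all were. In SuHx+carvedilol against normal 3 were called, where 7.93% of all were. The probes that lost their call were Atp2a2 A_44_P187083 in the first (adjusted p = 0.051) and Casq2 in the second (adjusted p = 0.0514). The member counts of the other comparisons did not change. The reported fits did not pair animals by number. Same-numbered animals correlated above 0.1 in 0 to 4 of 6 pairs. The 4 were in SuHx against normal, where r ran from 0.03 to 0.22. Its median there was 0.12, against -0.03 for animals with different numbers.

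Over all tested probes the 14 settings called 1055 to 3705 probes in hypoxia against normal (2308 as reported), 9 to 2131 in SuHx against normal (148), 1270 to 3323 in SuHx against hypoxia (2340), 15 to 1571 in SuHx+carvedilol against SuHx (287) and 545 to 5165 in SuHx+carvedilol against normal (2053). The share of calls that were higher ran from 6.4 to 20.8% (8.6% as reported), 27.6 to 100% (46.6%), 68.9 to 82.9% (78.5%), 33.3 to 80.5% (46.7%) and 18.5 to 58.9% (23%). Signal over background was not analysed, and Ryr2 in hypoxia rests on 5 arrays.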
